A study of Homo sapiens with 688 samples.

Results

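Cyclins are the regulatory subunits that switch on the cyclin-dependent kinases (CDKs), and their levels rise and fall as a cell passes through the division cycle. D-type cyclins respond to growth factor signalling, through the MEK and ERK kinases among others, and with CDK4 or CDK6 start the phosphorylation of RB1 in G1. E-type cyclins, under E2F control, partner CDK2 at the entry into S phase. Cyclin A2 acts with CDK2 and CDK1 in S phase and G2, cyclins B1 and B2 activate CDK1 for mitosis, and cyclin F is a subunit of an SCF ubiquitin ligase that is most abundant in G2.

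The genes described here are 9 cyclins of the division cycle, chosen by symbol. They comprise 4 mitotic cyclins (CCNA2, CCNB1, CCNB2 and CCNF) and 5 G1 cyclins (CCND1, CCND2, CCND3, CCNE1 and CCNE2), out of 28957 gene symbols in 8 count tables with 688 libraries. The measurement is PLATE-Seq, in which the messenger RNA of each well of a culture plate is captured on oligo(dT), barcoded at reverse transcription and sequenced as a pooled library of 3' ends at low depth. BT20, an epithelial line of human breast carcinoma, was treated for 6 h on 1 plate with the vehicle DMSO, 0.18 µM mitoxantrone, 0.084 µM idarubicin, 0.044 µM bortezomib, 7.16 µM crizotinib, 0.56 µM albendazole, 2 µM aprepitant or 0.194 µM gemcitabine, in 12 wells each. Part of the material of the same wells was pooled, 6 wells to a pool, for 16 deep TruSeq libraries, so that each condition also had 2 TruSeq pools of cells that PLATE-Seq had measured too. U87, a glioblastoma line, was treated for 24 h on 4 plates with 184 compounds in 2 wells each, beside 8 DMSO and 8 untreated wells, and each U87 library combined the lysates of 2 culture wells. LNCaP, a prostate cancer line (LnCAP in the labels), was untreated in 96 wells on each of 2 plates that share their lysates, purified on a capture plate or by a conventional extraction, and the labels do not say which plate had which. BT20 is listed among lines that are often misidentified, and the study obtained its lines from a repository. Nothing in the labels says that wells came from separate cultures, so p-values measure the spread between wells or pools, which may be technical.

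Levels are given in CPM, the counts of a gene scaled to a fixed library total. Library totals were between 367848 and 1317952 counts in BT20 wells, between 17063 and 1537549 in U87 wells, between 19448 and 1277169 in LNCaP wells and between 16881740 and 29068232 in TruSeq pools. In the BT20 wells, 6 abundant symbols that the U87 tables do not list took between 33.19% and 52.09% of all counts, which lowers the CPM of every other gene there. The markers of each line were present in it: EPCAM, an epithelial adhesion molecule, had a median of 277.8 CPM in BT20 DMSO wells, KLK3, the prostate-specific antigen, 839.4 CPM in LNCaP wells and VIM, vimentin, 2700 CPM in U87 DMSO wells. KLK3 was at 0 in all BT20 DMSO and U87 control wells. In bulk libraries, fewer cells in a phase of the cycle and less RNA per cell cannot be told apart.

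The promoters of the members that moved together are shown because G2 and mitosis genes are known for a pair of sequence elements, CCAAT boxes and a cell cycle homology region (CHR), close to their start. These are the 250 bases before the RefSeq transcript start (GRCh38.p14), written 5' to 3' on the gene's strand. Capitals mark matches on either strand, which do not overlap between motifs. The CCAAT box was searched as CCAAT and, for the other strand, as ATTGG. The CHR was searched as TTTGAA, for the other strand as TTCAAA, and as TTTAAA, which reads the same on both. CCNB1 lies at chr5:69166900-69167149 on the plus strand, CCNB2 at chr15:59104896-59105145 on the plus strand, CCNF at chr16:2429197-2429446 on the plus strand and CCNA2 at chr4:121823884-121824133 on the minus strand. CCNE1, a G1 cyclin, lies at chr19:29811741-29811990 on the plus strand.
CCNB1: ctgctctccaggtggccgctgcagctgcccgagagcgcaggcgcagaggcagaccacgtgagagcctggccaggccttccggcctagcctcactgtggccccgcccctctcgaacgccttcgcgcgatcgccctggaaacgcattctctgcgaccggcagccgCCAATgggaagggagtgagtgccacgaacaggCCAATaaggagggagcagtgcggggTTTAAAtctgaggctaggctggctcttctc
CCNB2: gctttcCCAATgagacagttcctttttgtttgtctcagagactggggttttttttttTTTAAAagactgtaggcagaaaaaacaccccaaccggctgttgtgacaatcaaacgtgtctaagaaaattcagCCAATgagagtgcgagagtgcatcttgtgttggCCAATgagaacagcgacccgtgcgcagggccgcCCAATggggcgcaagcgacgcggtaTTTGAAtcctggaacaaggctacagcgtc
CCNF: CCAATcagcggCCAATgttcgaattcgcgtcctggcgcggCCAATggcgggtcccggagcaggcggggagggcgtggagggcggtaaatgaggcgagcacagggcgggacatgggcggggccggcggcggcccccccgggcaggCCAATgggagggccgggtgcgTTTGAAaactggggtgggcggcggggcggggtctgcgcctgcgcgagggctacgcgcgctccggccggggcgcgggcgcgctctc
CCNA2: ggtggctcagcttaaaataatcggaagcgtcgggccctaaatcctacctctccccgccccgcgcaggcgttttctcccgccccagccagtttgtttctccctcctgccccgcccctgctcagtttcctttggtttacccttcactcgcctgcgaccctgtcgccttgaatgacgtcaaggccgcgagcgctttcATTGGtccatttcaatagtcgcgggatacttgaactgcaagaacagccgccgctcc
CCNE1: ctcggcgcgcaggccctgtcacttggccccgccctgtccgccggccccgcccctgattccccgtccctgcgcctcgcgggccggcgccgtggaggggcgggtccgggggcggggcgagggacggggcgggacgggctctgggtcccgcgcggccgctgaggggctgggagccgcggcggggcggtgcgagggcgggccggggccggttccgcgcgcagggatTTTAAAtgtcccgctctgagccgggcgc

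The CCNB1 window held 2 CCAAT matches and 1 CHR match, the CCNB2 window 4 and 2, and the CCNF window 4 and 1. Counted back from the start as negative positions, the nearest CHR match began at -30 in CCNB1, -29 in CCNB2 and -85 in CCNF. At least 2 CCAAT matches together with at least 1 CHR match were found in 2.12% of 35116 RefSeq promoter windows of the same length. Among the members they were found in 3 of the 5 windows shown and in 0 of the 3 of CCND3. Of all windows, 32.0% held at least 1 CCAAT match, 9.53% at least 2 and 21.9% at least 1 CHR match. The CCNA2 window held 1 CCAAT match and 0 CHR matches by these letters, and the CCNE1 window 0 and 1. Other forms of either element were not searched, so 0 matches do not show that a window lacks the element. The 3 promoter windows of CCND3 held 0 or 1 CCAAT match and 0 CHR matches. A match is a description of letters, and binding was not measured.

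With idarubicin, an anthracycline that poisons topoisomerase II, all 4 mitotic cyclins fell in BT20 cells within 6 h while CCNE2 rose. In the 12 DMSO wells, CCNB1, the main activator of CDK1 at mitosis, had a lowest, median and highest level of 131.5, 189.2 and 270.6 CPM. In the 12 idarubicin wells the same values were 39.69, 58.48 and 78.78 CPM. Every idarubicin well lay below every DMSO well, and the log2 fold change was -1.67 ± 0.13 (SE, adjusted p = 1.53e-16 by edgeR's quasi-likelihood test with Benjamini-Hochberg adjustment). CCNB2, its close relative, had 85.25, 117.6 and 189.9 CPM with DMSO and 25.18, 43.68 and 70.04 CPM with idarubicin, again without overlap, and a log2 fold change of -1.44 ± 0.16 (edgeR adjusted p = 1.95e-10). CCNA2 had 109.2, 161.3 and 221.6 CPM with DMSO and 70.88, 84.07 and 113.3 CPM with idarubicin, so that 10 of 12 treated wells lay below all DMSO wells. Its log2 fold change was -0.77 ± 0.12 (edgeR adjusted p = 7.55e-06). CCNF, at 11.31, 21.4 and 35.05 CPM with DMSO and 2.472, 5.712 and 23.26 CPM with idarubicin, had a log2 fold change of -1.29 ± 0.36 (edgeR adjusted p = 0.0273), with 10 of 12 treated wells below all DMSO wells.

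The G1 cyclins did not move with the mitotic ones under idarubicin. CCNE2, one of the 2 E-type cyclins, had 4.188, 12.52 and 22.89 CPM with DMSO and 14.87, 30.78 and 61.71 CPM with idarubicin, and 8 of 12 treated wells lay above all DMSO wells. Its log2 fold change was 1.27 ± 0.28 (edgeR adjusted p = 0.00246). CCND1, the D-type cyclin with most counts here, had 52.58, 110.7 and 171.3 CPM with DMSO and 68.62, 97.51 and 159.4 CPM with idarubicin, and the groups overlapped throughout, with a log2 fold change of 0.02 ± 0.14 (edgeR adjusted p = 0.978). CCND3, another D-type cyclin, had a log2 fold change of -0.05 ± 0.26 (edgeR adjusted p = 0.971). Of the 9 members, 7 passed the filter on low counts, 4 were called lower and 1 higher, beside 2.78% of all 6586 genes tested that were called in either direction, 1.93% lower and 0.85% higher. CCNE1 and CCND2 did not pass it: CCNE1 had 0, 2.187 and 12.13 CPM in the DMSO wells and 0, 6.457 and 12.97 CPM with idarubicin.

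**Figure D1:**
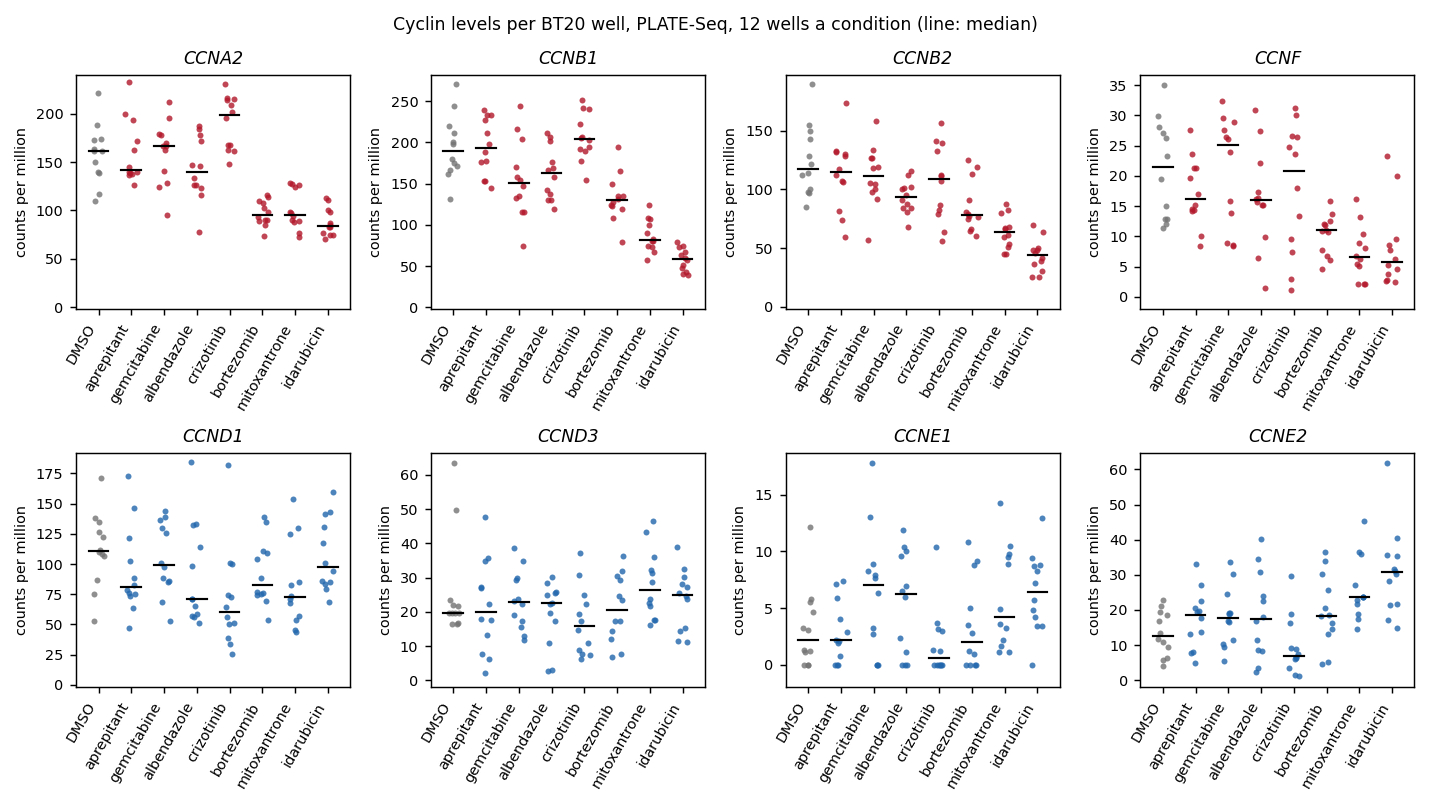
Level of 8 cyclins in CPM (vertical axis) in each of 12 BT20 wells per condition (horizontal axis), with the median as a line; grey points are DMSO, red points the mitotic and blue points the G1 cyclins. CCNB1 and CCNB2 with idarubicin lie wholly below DMSO, and CCND1 with idarubicin overlaps it.

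Mitoxantrone, another topoisomerase II poison, lowered the same class at the dose used here. CCNB1 had 57.34, 81.6 and 124.3 CPM as lowest, median and highest of 12 wells, all below the 12 DMSO wells, and a log2 fold change of -1.09 ± 0.13 (edgeR adjusted p = 3.85e-09). CCNB2 had 45.04, 63.88 and 87.65 CPM, with 11 of 12 wells below all DMSO wells and a log2 fold change of -0.89 ± 0.15 (edgeR adjusted p = 3.90e-05). CCNA2 had 72.36, 95.54 and 127.9 CPM, with 8 wells below all DMSO wells and a log2 fold change of -0.59 ± 0.13 (edgeR adjusted p = 0.00382). CCNF had 2.157, 6.566 and 16.24 CPM, with 10 wells below all DMSO wells and a log2 fold change of -1.47 ± 0.35 (edgeR adjusted p = 0.0127). All 4 mitotic cyclins were thus called lower, beside 1.21% of 6276 genes called in either direction, 1.05% lower and 0.159% higher. Among the 3 G1 cyclins that passed the filter, 0 were called. CCNE2 had 14.63, 23.76 and 45.45 CPM, and 7 of 12 wells lay above all DMSO wells, but its log2 fold change of 1.00 ± 0.29 had an edgeR adjusted p of 0.0651.

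Bortezomib, an inhibitor of the proteasome, lowered CCNA2 and CCNB1. CCNA2 had 72.98, 95.44 and 115.7 CPM, with 9 of 12 wells below all DMSO wells and a log2 fold change of -0.58 ± 0.12 (edgeR adjusted p = 0.000785). CCNB1 had 79.41, 129.5 and 194.8 CPM, with 7 wells below all DMSO wells and a log2 fold change of -0.43 ± 0.13 (edgeR adjusted p = 0.0249). CCNB2 at -0.42 ± 0.14 and CCNF at -0.90 ± 0.31 on the log2 scale missed the threshold (edgeR adjusted p = 0.0759 and 0.0868). The 2 calls among 7 members tested stand beside 4.91% of 6330 genes called with this drug, 1.97% lower and 2.94% higher.

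Crizotinib, an inhibitor of the MET and ALK receptor kinases, gave 0 called members of 6 tested in PLATE-Seq, beside 2.05% of 5867 genes, 1.09% higher and 0.954% lower. CCND1 had 25.21, 60.2 and 181.8 CPM, with 5 of 12 wells below and 1 well above all DMSO wells, and its log2 fold change was -0.65 ± 0.21 (edgeR adjusted p = 0.0881). CCNA2 had 148.4, 198.3 and 230.9 CPM and a log2 fold change of 0.27 ± 0.12 (edgeR adjusted p = 0.252), and wells overlapped for both genes. Without the filter on low counts, edgeR called 1 member, beside 371 of 16808 genes. Albendazole, an antiparasitic drug that binds tubulin, gave 0 called members beside 0.1% of 5990 genes, 0.0167% lower and 0.0835% higher. Aprepitant, an NK1 receptor antagonist, and gemcitabine, a nucleoside analog, gave 0 called members, beside 0.0% of 6463 and 0.0% of 6410 genes by edgeR. At an unadjusted p under 0.05, edgeR gave 324, 357 and 367 genes with albendazole, aprepitant and gemcitabine, and DESeq2 called 9, 2 and 3 genes after adjustment. Each drug held a fixed position within every run of 8 wells of the plate, so plate position and drug cannot be told apart.

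In the TruSeq pools CCNE1 also passed the filter, so that 4 of the 5 G1 cyclins were tested there, and CCND2 did not pass. CCNE1 had 26.91 and 28.39 CPM in the DMSO pools and 45.85 and 46.82 CPM in the idarubicin pools, and its log2 fold change was 0.73 ± 0.06 (SE, edgeR adjusted p = 1.49e-11). CCNE2 had 53.26 and 48.55 CPM with DMSO and 100.2 and 106.8 CPM with idarubicin, and rose by 1.00 ± 0.06 on the log2 scale (edgeR adjusted p = 5.29e-15). CCND3 had 158.9 and 160.3 CPM with DMSO and at least 189.9 CPM in both idarubicin pools, a log2 fold change of 0.23 ± 0.05 (edgeR adjusted p = 0.000118). The pools of each of these genes did not overlap, which was not counted over all genes. With 2 pools a side this says little. The gemcitabine pools of CCNA2, CCNB1, CCNB2 and CCND3 also lay below both DMSO pools, though 0 genes were called with gemcitabine. CCND1, at 308.6 and 306.5 CPM with DMSO and 308.6 and 326.7 CPM with idarubicin, had a log2 fold change of 0.03 ± 0.04 (edgeR adjusted p = 0.619).

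The mitotic cyclins fell in the idarubicin pools as in the wells they were made from. CCNB1 had 289.9 and 293.8 CPM with DMSO and 84.16 and 83.01 CPM with idarubicin, a log2 fold change of -1.82 ± 0.04 (edgeR adjusted p = 6.32e-26). CCNB2 fell from 166.7 and 161.3 CPM to 67.12 and 67.36 CPM, CCNA2 from 173.8 and 174.7 CPM to 95.93 and 100.9 CPM, and CCNF from a mean of 104.5 CPM to 54.22 and 50.71 CPM. Their log2 fold changes were -1.30, -0.84 and -1.01. In all, 4 members were called lower and 3 higher of 8 tested, beside 37.4% of 14970 genes called in either direction, 18.4% lower and 18.9% higher. The members were not tested as a set.

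With mitoxantrone the TruSeq pools gave the same 7 calls, 4 lower and 3 higher, beside 30.8% of genes called in either direction, 15.1% lower and 15.6% higher. CCNB1 had 137.2 and 136.4 CPM and a log2 fold change of -1.14 ± 0.04, CCNA2 -0.78, CCNB2 -0.88 and CCNF -0.86. CCNE1 had 42.21 and 42.12 CPM (0.57 ± 0.06 on the log2 scale) and CCNE2 97.01 and 99.48 CPM (0.91 ± 0.06), with edgeR adjusted p-values of 1.20e-08 and 1.78e-13. CCND3 rose by 0.21 and CCND1 stood at -0.03 on the log2 scale (edgeR adjusted p = 0.602). With the sequencing lane as a term, the CCND3 calls were lost for both drugs, at 0.11 (edgeR adjusted p = 0.534) for mitoxantrone and 0.13 (0.356) for idarubicin.

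With crizotinib, the 4 G1 cyclins tested fell in the TruSeq pools, and of the mitotic cyclins CCNA2 alone was called, as higher. CCND1 had 195.5 and 204.5 CPM against 308.6 and 306.5 CPM with DMSO, a log2 fold change of -0.58 ± 0.04 (edgeR adjusted p = 6.05e-13). CCNE2 had 32.88 and 29.65 CPM (-0.67 ± 0.07, adjusted p = 4.75e-09), CCNE1 20.2 and 19.92 CPM (-0.43 ± 0.07, adjusted p = 1.27e-05) and CCND3 133.1 and 146.2 CPM (-0.15 ± 0.05, adjusted p = 0.00901) by edgeR. These 4 and CCNA2, which rose by 0.12 (edgeR adjusted p = 0.047), were the members called, beside 42.2% of all genes, 20.6% lower and 21.6% higher. Without the first crizotinib pool CCND3 stood at -0.10 and CCNA2 at 0.06, and both calls were lost. The CCNA2 call was also lost without either DMSO pool, with lane as a term, without the filter and by DESeq2.

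With bortezomib, all 4 mitotic cyclins and CCND1 fell in the TruSeq pools. CCND1 had 214.0 and 207.1 CPM, a log2 fold change of -0.48 ± 0.04 (edgeR adjusted p = 1.75e-11), and CCND3 had 190.3 and 193.2 CPM, a log2 fold change of 0.34 ± 0.05 (edgeR adjusted p = 2.82e-07). CCNA2 was at -0.58, CCNB1 at -0.46, CCNB2 at -0.45 and CCNF at -0.77 on the log2 scale. CCNE2 rose by 0.18 (edgeR adjusted p = 0.0216), a call that was lost without the second bortezomib pool (0.08) or the second DMSO pool (0.12). The 5 lower and 2 higher calls stand beside 40.8% of all genes, 19.6% lower and 21.3% higher. Albendazole gave 1 call, CCNB2 at -0.14 (edgeR adjusted p = 0.0384, beside 11.3% of genes, 4.3% lower and 7.0% higher), which was lost without its first pool, without the first DMSO pool and with lane as a term. Aprepitant gave 0 calls beside 1.82% of genes (1.22% higher and 0.601% lower) and gemcitabine 0 beside 0.0%, with 1143 genes at an unadjusted p under 0.05 by edgeR and 0 adjusted calls by DESeq2. Both DMSO pools ran on 1 lane and both pools of mitoxantrone, idarubicin, crizotinib and albendazole on the other, and aprepitant alone had a pool on each lane, so that for these 4 drugs the lane term rests on the aprepitant pools.

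**Figure D2:**
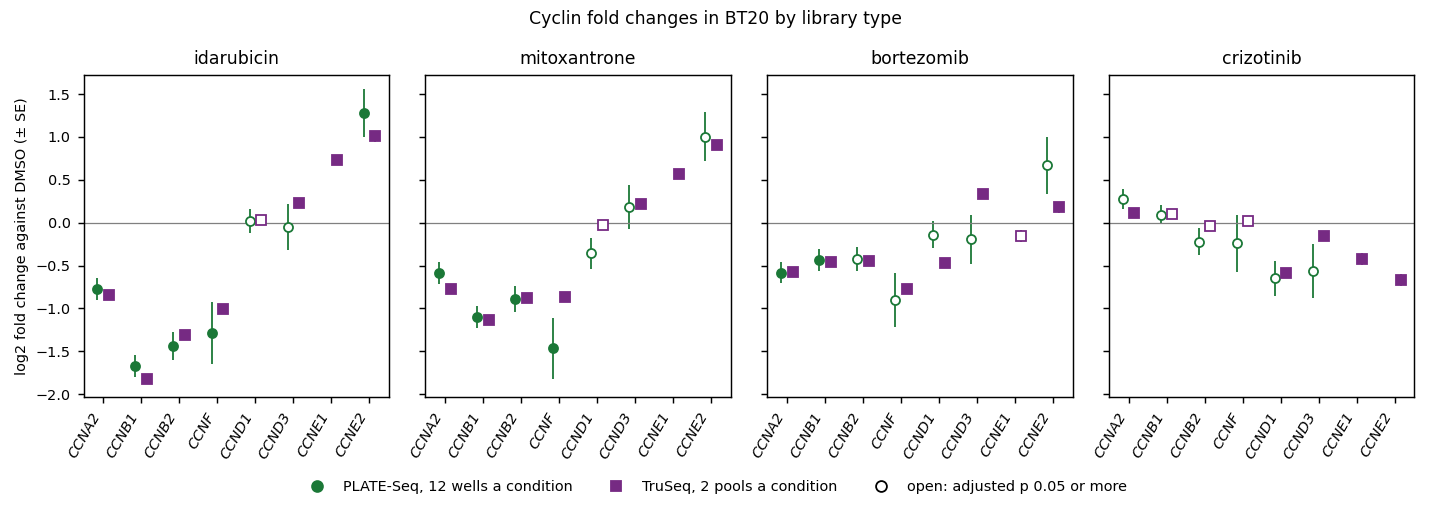
Log2 fold change against DMSO with its SE (vertical axis) for 8 cyclins (horizontal axis) under 4 drugs in BT20, by PLATE-Seq (green circles, 12 wells a condition) and TruSeq (purple squares, 2 pools a condition, SE often smaller than the symbol). With idarubicin and mitoxantrone the mitotic cyclins lie below 0 and CCNE2 above it in both library types; open symbols have an adjusted p of 0.05 or more.

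The ratio of summed mitotic to summed G1 cyclin CPM in each well describes both classes at once. In BT20 DMSO wells, its log2 had a lowest, median and highest value of 1.17, 1.63 and 2.43. With idarubicin these were -0.16, 0.21 and 0.65, with all 12 wells below all DMSO wells, and with mitoxantrone -0.14, 0.95 and 1.67, with 10 wells below. With crizotinib they were 1.57, 2.5 and 3.27, with 7 wells above all DMSO wells. Bortezomib had 0.74, 1.33 and 1.56, with 4 wells below, and the medians of albendazole, aprepitant and gemcitabine, at 1.56, 2.03 and 1.55, lay within the DMSO range. In the TruSeq pools the log2 ratio was 0.42 and 0.43 with DMSO, -1.15 and -1.10 with idarubicin, -0.71 and -0.70 with mitoxantrone and 0.88 and 0.99 with crizotinib. The order of idarubicin, mitoxantrone, DMSO and crizotinib by their ratio was thus the one seen in the wells. As a difference of mean log2 CPM, with equal weight for each member, the shift with mitoxantrone went from -0.68 to -1.27. The ratio is set by its most abundant members, and as a sum over members it was given no test.

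**Figure D3:**
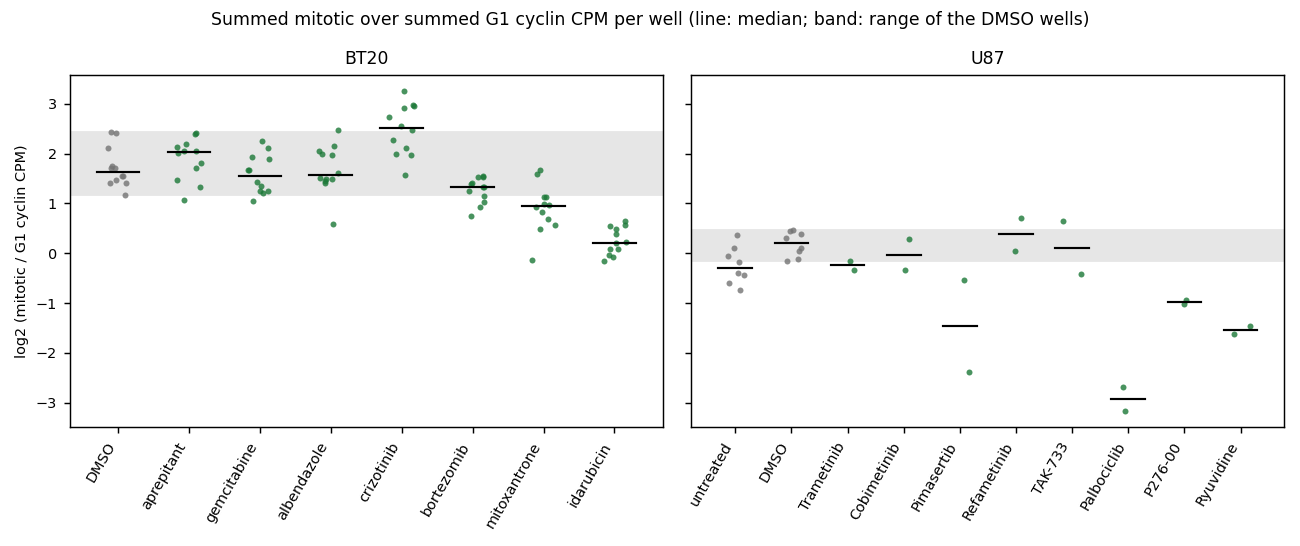
Log2 of summed mitotic over summed G1 cyclin CPM (vertical axis) per PLATE-Seq well by condition (horizontal axis), for BT20 on the left and U87 on the right; lines are medians and grey bands the range of the DMSO wells. Idarubicin in BT20 and palbociclib in U87 lie farthest below their bands, and 7 crizotinib wells lie above theirs.

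Some partners and regulators of cyclins were called in the BT20 wells. Of a list of 30 such genes, 22 passed the filter with idarubicin, of which 2 were called higher and 5 lower. Beside these stood 0.85% and 1.93% of all genes. The median log2 fold change of the 22 was -0.05, beside 0.003 over all genes. CDC20, which directs the destruction of cyclins A and B, had 77.8 ± 20.5 CPM with DMSO and 18.7 ± 8.38 CPM with idarubicin (SD, n = 12 each), and its log2 fold change was -1.98 ± 0.21 (edgeR adjusted p = 3.08e-11). CKS2, a CDK-binding subunit, was at -1.14, CDKN2C, an inhibitor of CDK4 and CDK6, at -0.87 and CDK1 at -0.42 on the log2 scale. With mitoxantrone, CDC20 at -1.24 and CKS2 at -0.81 were called of 21 tested, whose median was -0.07, beside 1.21% of all genes called. With bortezomib 3 of 20 tested were called, 1 of them higher, beside 4.91% of all genes. CDKN1A, the CDK inhibitor p21, rose from 8.03 ± 5.99 to 35.3 ± 13.0 CPM (SD, n = 12 each; log2 fold change 2.23 ± 0.33, edgeR adjusted p = 6.94e-07), and CDC20 at -0.88 and CDKN2C at -0.79 fell. With crizotinib CKS2 rose by 0.76, and SKP2, a ubiquitin ligase subunit, fell by 0.65. They were the 2 calls of 20 tested, beside 2.05% of all genes.

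In the TruSeq pools, 28 of the 30 partners passed the filter, and with idarubicin 10 were called higher and 15 lower, beside 18.9% and 18.4% of all genes. E2F1, a factor for S phase genes, had 87.5 ± 0.0873 CPM with DMSO and 182.3 ± 2.82 CPM with idarubicin (SD, n = 2 each), a rise of 1.04 on the log2 scale. CDT1, which licenses replication origins, rose by 0.98, CDC20 was at -1.70 and CKS2 at -1.49. Among 17 cyclins with other roles, CCNG2, an atypical cyclin, was called lower in the wells with idarubicin (-1.55), mitoxantrone (-1.38) and bortezomib (-1.35). It was the 1 call among 11 tested each time, beside 2.78%, 1.21% and 4.91% of all genes. In the TruSeq pools, where all 17 passed, CCNG2 was at -1.21 with idarubicin and at 0.84 with crizotinib. CCNB3, a further B-type cyclin, had 32.7 ± 1.89 CPM with DMSO and 3.31 ± 0.865 CPM with idarubicin (SD, n = 2 each), and its log2 fold change was -3.32.

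Across the 96 BT20 wells, the genes outside the members whose log2 CPM was most like that of CCNB1 were FAM83D (Pearson's r = 0.823), UBE2C (0.822) and AURKA (0.797), out of 4377 genes compared. UBE2C and AURKA serve in mitosis, as an E2 enzyme of the anaphase-promoting complex and as a spindle kinase. CCNB2 had r = 0.703 and CCNA2 0.645 with CCNB1, and CCND1 -0.09. Wells share the drug, the plate and depth, so these values are a description.

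Among 5 MEK inhibitors in U87 cells, pimasertib, refametinib and TAK-733 lowered mitotic cyclins and CCND1 together. MEK is the kinase that activates ERK, which promotes CCND1 transcription. The 5 inhibitors were trametinib (GSK1120212) at 0.036 µM, cobimetinib (GDC-0973, RG7420) at 0.5 µM, pimasertib (AS-703026) at 0.911 µM, refametinib (RDEA119, Bay 86-9766) at 2.289 µM and TAK-733 at 0.268 µM, in 2 wells each. Levels shifted between plates: the 2 DMSO wells of a plate had CCND1 at 208.3 and 211.1 CPM on the first, 393.2 and 399.6 CPM on its duplicate, 363.6 and 480.1 CPM on the third and 215.1 and 221.6 CPM on its duplicate. The fit therefore had a term for the plate. Trametinib, cobimetinib and palbociclib were on the first pair of plates and the other inhibitors on the second, and doses differ, so compounds are given side by side and were not compared.

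CCND1 over the 8 DMSO wells had a lowest, median and highest level of 208.3, 292.6 and 480.1 CPM. It had 95.88 and 48.49 CPM with refametinib, 188.8 and 74.0 CPM with TAK-733 and 188.6 and 109.4 CPM with pimasertib, all below every DMSO well. With trametinib it had 190.9 and 312.0 CPM and with cobimetinib 162.4 and 453.5 CPM, so that 8 of the 10 MEK inhibitor wells lay below all 8 DMSO wells. The mean log2 fold change over the 5 compounds was -0.91 ± 0.10 (edgeR adjusted p = 1.64e-11). By compound, it was -2.0 ± 0.20 for refametinib (edgeR adjusted p = 6.03e-13), -1.26 ± 0.19 for TAK-733 (6.99e-07), -1.10 ± 0.20 for pimasertib (2.09e-05), -0.18 ± 0.17 for trametinib (0.66) and -0.01 ± 0.17 for cobimetinib (0.994). The SE and p of a mean over compounds, here and below, measure the spread between wells and leave out that between compounds.

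The mitotic cyclins fell over the same wells. CCNB1 had 123.4, 171.5 and 255.1 CPM over the DMSO wells, against 76.19 and 14.03 CPM with pimasertib, 58.18 and 51.05 CPM with refametinib, 59.3 and 52.86 CPM with TAK-733, 92.65 and 179.9 CPM with trametinib and 99.57 and 221.1 CPM with cobimetinib. Of these 10 wells, 8 lay below all DMSO wells, and the mean log2 fold change was -1.18 ± 0.14 (edgeR adjusted p = 3.60e-11). CCNA2 had 87.74, 108.9 and 145.9 CPM with DMSO, 9 of 10 MEK inhibitor wells lay below that range, and its mean log2 fold change was -1.20 ± 0.17 (edgeR adjusted p = 1.43e-08). For CCNB2 it was -1.28 ± 0.17 with 8 of 10 wells below, and for CCNF -1.86 ± 0.41 with 4 of 10 wells below (edgeR adjusted p = 2.75e-09 and 0.000221). CCNE2, at 4.125, 13.85 and 62.92 CPM over the DMSO wells, was at -1.76 ± 0.56 (edgeR adjusted p = 0.0238), a call that was lost without the first or without the second plate of each pair. CCND3 at -0.56 and CCNE1 at 0.63 were not called (edgeR adjusted p = 0.17 and 0.501). In all, 6 of 8 members tested were called lower and 0 higher, beside 21.3% of 9195 genes called in either direction, 11.8% lower and 9.53% higher.

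By compound, pimasertib had 5 called members, all lower, beside 11.5% of genes, 5.76% lower and 5.73% higher. CCNB2 had 20.95 and 2.806 CPM with it, the second value from 1 count, and a log2 fold change of -3.02 ± 0.39 (edgeR adjusted p = 6.33e-09). CCNA2 was at -1.93, CCNB1 at -1.90 and CCNF, with 1 count in one well and 0 in the other, at -4.13 on the log2 scale, where the fitted value of a gene so near 0 is no bound. Refametinib had 4, beside 14.9% of genes (7.29% lower, 7.57% higher), with CCNA2 at -1.48, CCNB1 at -1.47 and CCNB2 at -1.58. TAK-733 had 4, beside 9.7% of genes (4.35% lower, 5.35% higher), with CCNA2 at -1.24, CCNB1 at -1.58 and CCNB2 at -1.32. Trametinib had 1, CCNA2 at -0.90 ± 0.29 (edgeR adjusted p = 0.042), beside 6.69% of genes (3.27% lower, 3.41% higher), and cobimetinib 0, beside 3.33%, 1.51% lower and 1.82% higher (306 of 9195 genes by edgeR, 1182 at an unadjusted p under 0.05, and 344 adjusted by DESeq2). Without the well of the first plate of each pair, fewer members and fewer genes in all were called with pimasertib, refametinib and TAK-733. In those fits a single treated well was assumed to vary like the other groups. With trametinib the call was lost without either well, at -0.87 and -0.98 on the log2 scale.

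Palbociclib, an inhibitor of CDK4 and CDK6, the D cyclin kinases, lowered mitotic cyclins at 0.1 µM while CCND1 rose. CCND1 had 430.8 CPM in the well whose plate had DMSO wells at 208.3 and 211.1 CPM, and 973.8 CPM where they had 393.2 and 399.6 CPM. Its log2 fold change was 1.28 ± 0.16 (edgeR adjusted p = 4.18e-09). CCND3 had 45.06 and 47.85 CPM, both above the highest DMSO well at 42.51 CPM, with a log2 fold change of 1.22 ± 0.45 that was not called (edgeR adjusted p = 0.145). CCNA2 had 12.62 and 29.74 CPM (-2.32 ± 0.35, adjusted p = 1.03e-06), CCNB1 39.65 and 59.49 CPM (-1.97 ± 0.27, adjusted p = 8.62e-08) and CCNB2 16.22 and 21.98 CPM (-1.78 ± 0.34, adjusted p = 0.000209) by edgeR. All of these wells lay below all 8 DMSO wells. The E-type cyclins had few counts. CCNE2 had 1.802 and 1.293 CPM, from 1 count in each well and below all 8 DMSO wells, and CCNE1 had 0 and 2 counts. Neither was called, at -3.52 and -1.51 on the log2 scale (edgeR adjusted p = 0.226 and 0.705). The 3 lower and 1 higher calls stand beside 2.71% of genes called in either direction, 1.77% lower and 0.935% higher. The CCNB2 call was lost without either well, at -1.76 and -1.67 on the log2 scale.

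Ryuvidine at 3.5643 µM, described as a CDK4 inhibitor, lowered the mitotic cyclins CCNA2, CCNB1 and CCNB2, the 3 calls of 8 members tested, beside 12.5% of genes, 6.46% lower and 6.07% higher. CCNB1 had 56.31 and 28.79 CPM, below all DMSO wells, and a log2 fold change of -2.01 ± 0.30 (edgeR adjusted p = 1.67e-07). CCNA2 was at -1.19 ± 0.33 and CCNB2 at -1.48 ± 0.32 (edgeR adjusted p = 0.00768 and 0.000479). CCND1 had 447.9 and 298.9 CPM and was not called, at 0.28 ± 0.17 (edgeR adjusted p = 0.337). Without the plate term only CCNB1 remained called, beside 359 of 9195 genes. Calls were also lost without the first well. P276-00, an inhibitor of several CDKs, at 0.444 µM had 0 called members, beside 1.87% of genes, 1.14% lower and 0.729% higher, by edgeR (DESeq2 called 233 genes, and edgeR 1230 at an unadjusted p under 0.05). CCNB1 had 110.7 and 80.98 CPM with it, both below the DMSO range, at -0.87 ± 0.26 (edgeR adjusted p = 0.0516), and CCND1 had 514.0 and 385.5 CPM at 0.50 ± 0.17 (0.119). DESeq2 called 1 member, beside 233 of 4025 genes, and edgeR without a filter 2, beside 205 of 16899. One of its wells had 0.449 times the median depth of its plate.

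**Figure D4:**
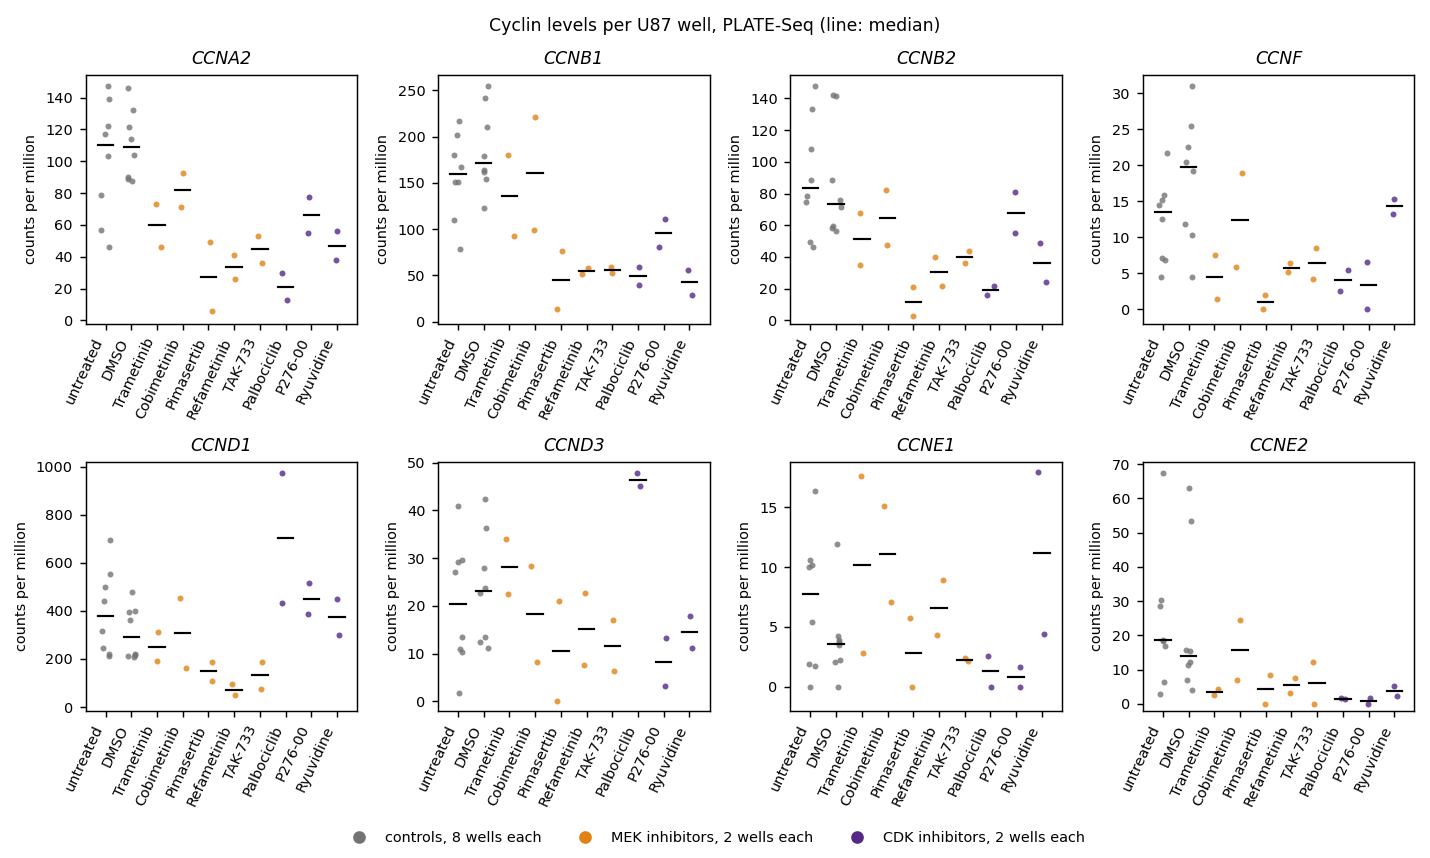
Level of 8 cyclins in CPM (vertical axis) per U87 well (horizontal axis: untreated and DMSO wells in grey, 8 each; MEK inhibitors in orange and CDK inhibitors in purple, 2 wells each), with medians as lines. CCND1 lies below all DMSO wells with pimasertib, refametinib and TAK-733, and reaches 973.8 CPM with palbociclib.

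DMSO itself was compared with no treatment in U87. CCND1 had 212.4, 377.6 and 694.2 CPM over the 8 untreated wells and a log2 fold change of -0.40 ± 0.10 in DMSO wells (edgeR adjusted p = 0.013), with overlapping groups. It was the 1 member called, beside 3.35% of genes (2.11% lower, 1.24% higher), and the call was lost without the plate term and without either plate of each pair.

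The mitotic to G1 log2 ratio in U87 DMSO wells had -0.16, 0.20 and 0.47 as lowest, median and highest value. Both wells lay below that range with palbociclib (-3.17 and -2.69), ryuvidine (-1.62 and -1.47), P276-00 (-1.02 and -0.94) and pimasertib (-2.39 and -0.53). With refametinib it was 0.05 and 0.71, and with TAK-733 -0.42 and 0.65. As a difference of mean log2 CPM, which gives each member equal weight, the shift from DMSO went from -1.19 to -0.07 with P276-00, from -3.13 to -1.75 with palbociclib and from -1.75 to -1.13 with ryuvidine. With refametinib it turned from 0.17 to -0.85, so that no direction is given for it. The untreated wells had a median of -0.29.

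Of the 30 partners, 25 passed the filter in U87, and over the MEK inhibitors 0 were called higher and 12 lower, beside 9.53% and 11.8% of all genes, with a median log2 fold change of -0.83 beside -0.03 over all genes. CDC20 had 30.3 ± 15.9 CPM (SD, n = 10) against 87.9 ± 34.6 CPM (SD, n = 8) with DMSO, a log2 fold change of -1.59 ± 0.17 (edgeR adjusted p = 5.36e-12). CDK1 was at -1.35, E2F1 at -1.31 and CKS2 at -1.10 on the log2 scale. With palbociclib 6 were called lower and 0 higher, beside 1.77% and 0.935% of all genes. CDK1 had 12.7 ± 7.70 CPM (SD, n = 2) and a log2 fold change of -3.86 ± 0.32. FOXM1, a factor for mitosis genes, was at -2.42, CDC25B, a CDK phosphatase, at -2.31 and CDC20 at -1.86. With ryuvidine CDC20 at -1.88 and CDK1 at -1.45 were called lower, and CDKN1A rose from 598 ± 214 CPM (SD, n = 8) to 1926 ± 457 CPM (SD, n = 2), by 1.34 on the log2 scale. These were the 3 calls of 25 tested with ryuvidine, beside 12.5% of all genes, a share near that of the partners. With P276-00 CDK1 alone was called, at -1.13, beside 1.87% of all genes. Of 12 cyclins with other roles that passed, CCNH, the subunit of the CDK-activating kinase, was called over the MEK inhibitors (-0.34) and CCNY with palbociclib (0.82). Each was the 1 call of 12, beside 21.3% and 2.71% of all genes.

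Over all U87 wells, after the mean of each plate was subtracted, the genes most like CCNB1 were AURKA (Pearson's r = 0.787), PRR11 (0.763) and TOP2A (0.754) out of 5723 compared, and CCNB2 had 0.78 and CCNA2 0.738. CCND1 had r = 0.281 with CCNB1, and the genes most like it were NAP1L1 (0.504), XRCC5 (0.479) and DNAJC21 (0.45). AURKA was among the 3 genes most like CCNB1 in both lines. Wells share plates and depth, so these too are a description.

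Among all 184 compounds, each at its own dose, levels are given as the difference of log2 CPM (prior count 1) from the mean of the 2 DMSO wells of the same plate. A compound is counted as above or below where both of its wells lay beyond all 4 DMSO wells of its pair of plates. CCND1 lay above with 85 and below with 42 compounds, CCNA2 above with 21 and below with 81, and CCNB1 above with 16 and below with 48. Among the compounds whose wells had at least 0.5 times the median depth of their plate, these counts were 80 and 36 for CCND1, 20 and 71 for CCNA2 and 16 and 39 for CCNB1. The 2 DMSO wells of a plate can lie close together, as for CCND1 at 208.3 and 211.1 CPM on the first plate. A small difference then counts, and trametinib counted as below for CCND1 at -0.13 and -0.34. Such counts were not made for other genes, so they are no result about the members. The compounds share the DMSO wells of their plates, and no test was made for single compounds outside the MEK and CDK inhibitors.

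CCNB1 was lowest with selinexor (KPT-330), an inhibitor of nuclear export, at -3.04 (22.72 and 18.35 CPM), and highest with cytarabine, a nucleoside analog, at 0.75 (284.2 and 339.6 CPM). CCNA2 was lowest with bortezomib at 0.01 µM, at -2.94 (8.961 and 16.12 CPM), while CCNB1 stood at -0.70 (99.85 and 127.7 CPM) with it. CCND1 was highest with IKK 16, at 2.34 (1376 and 1716 CPM), and lowest with romidepsin, a histone deacetylase inhibitor, at -3.07 from 4 and 26 counts. Among the deeper wells CCND1 was lowest with refametinib, at -2.12. CCNF was lowest with pimasertib, at -3.35, and CCND3 highest with palbociclib, at 1.13. CCNB2 had 0 counts in both wells of belinostat, CCND3 in both wells of celastrol (CELASTROL in the labels) and CCNE2 in both wells of 2,3-DCPE hydrochloride. The celastrol wells held 45384 and 43487 counts in all and the belinostat wells 184684 and 207048, so that 0 counts of a low gene say little there. Where counts are this low, the differences depend on the prior count.

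Idarubicin, mitoxantrone, bortezomib and crizotinib, each with called members in BT20, were also in the U87 screen, at other doses and for 24 h. With crizotinib those calls were in the TruSeq pools, and 0 of 6 members tested were called in the wells. Idarubicin at 0.024 µM gave CCNB1 at 143.6 and 152.6 CPM in U87, a mean log2 difference of -0.31, and CCND1 at 316.0 and 536.0 CPM, a difference of 0.51. CCNB2 lay above all 4 DMSO wells of its plates with it, at 0.28, CCNA2 below them, at -0.65, and CCNE2, which rose in BT20, was at -0.70 from 2 and 8 counts. Mitoxantrone (Mitoxanthrone dihydrochloride in the labels) at 0.012 µM gave CCNB1 70 and 110 counts, a difference of 0.0005, and CCNA2 at 80.37 and 48.55 CPM, a difference of -0.70, while CCNE2 was at -1.59 from 2 counts in each well. Crizotinib at 0.181 µM gave CCND1 at 164.1 and 421.5 CPM, a difference of -0.13.

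To set control wells of the lines side by side, counts of the symbols listed for both were scaled together by TMM, a method that assumes most genes unchanged. Line, plate and experiment cannot be told apart here. Handling differed too: per the paper's methods, BT20 plates were frozen in serum with DMSO and thawed before lysis, and no freezing is described for U87. Between BT20 and U87 DMSO wells, which also differ in hours of DMSO, all 4 mitotic cyclins were higher in BT20. CCNA2 had 170.9, 255.5 and 348.4 scaled CPM in 12 BT20 wells and 105.8, 113.2 and 138.2 in 8 U87 wells, without overlap, a log2 fold change of 1.09 ± 0.16 (edgeR adjusted p = 3.06e-07). CCNB1 had 212.8, 293.6 and 434.9 against 153.5, 198.3 and 249.3 scaled CPM, with overlap, a log2 fold change of 0.64 ± 0.16 (edgeR adjusted p = 0.000536). CCNB2 was higher by 1.10 and CCNF by 0.77 on the log2 scale (edgeR adjusted p = 6.66e-06 and 0.0373), and the CCNF call was lost with RLE scaling (0.0536) and without the filter. CCND1 was lower in BT20, at 85.13, 176.9 and 263.5 against 248.5, 313.5 and 454.9 scaled CPM, a log2 fold change of -0.88 ± 0.17 (edgeR adjusted p = 3.24e-05). The 4 higher and 1 lower calls of 7 members tested stand beside 68.3% of 7247 genes called, 34.5% higher and 33.8% lower, a share near that of the members.

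Between untreated LNCaP and U87 wells, CCND1 and CCNA2 were lower in LNCaP under every scaling tried. The LNCaP plates share lysates, but the fit took all LNCaP wells as separate, which its p-values do not account for. CCND1 had 64.67, 183.1 and 549.6 scaled CPM over all LNCaP wells and 282.0, 432.5 and 681.1 in 8 U87 wells, a log2 fold change of -1.15 ± 0.14 (edgeR adjusted p = 3.35e-14). CCNA2 had 0, 68.62 and 122.1 scaled CPM and lay between 64.03 and 144.6 in U87, at -0.67 ± 0.11 (edgeR adjusted p = 3.56e-08), and both groups overlapped. CCNE2 was lower by 0.92 and CCNF higher by 0.79 on the log2 scale (edgeR adjusted p = 0.0025 and 0.00163), the other members called, beside 72.7% of 8010 genes, 34.2% lower and 38.4% higher. RLE scaling moved the median of all genes from 0.07 to -0.33, and with it CCNF was at 0.41 (edgeR adjusted p = 0.0993), CCNB1 went from 0.02 to -0.39 (4.74e-05), CCNB2 from 0.05 to -0.35 (0.0282) and CCND3 from -0.18 to -0.59 (0.0141). With the first LNCaP plate alone 2 members were called, beside 5294 of 6942 genes, since CCNF at 0.39 and CCNE2 at -0.47 missed the threshold. Of the partners, CDK6 was at -4.45 in LNCaP against U87, and CDKN1A at -5.61 in BT20 against U87.

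**Figure D5:**
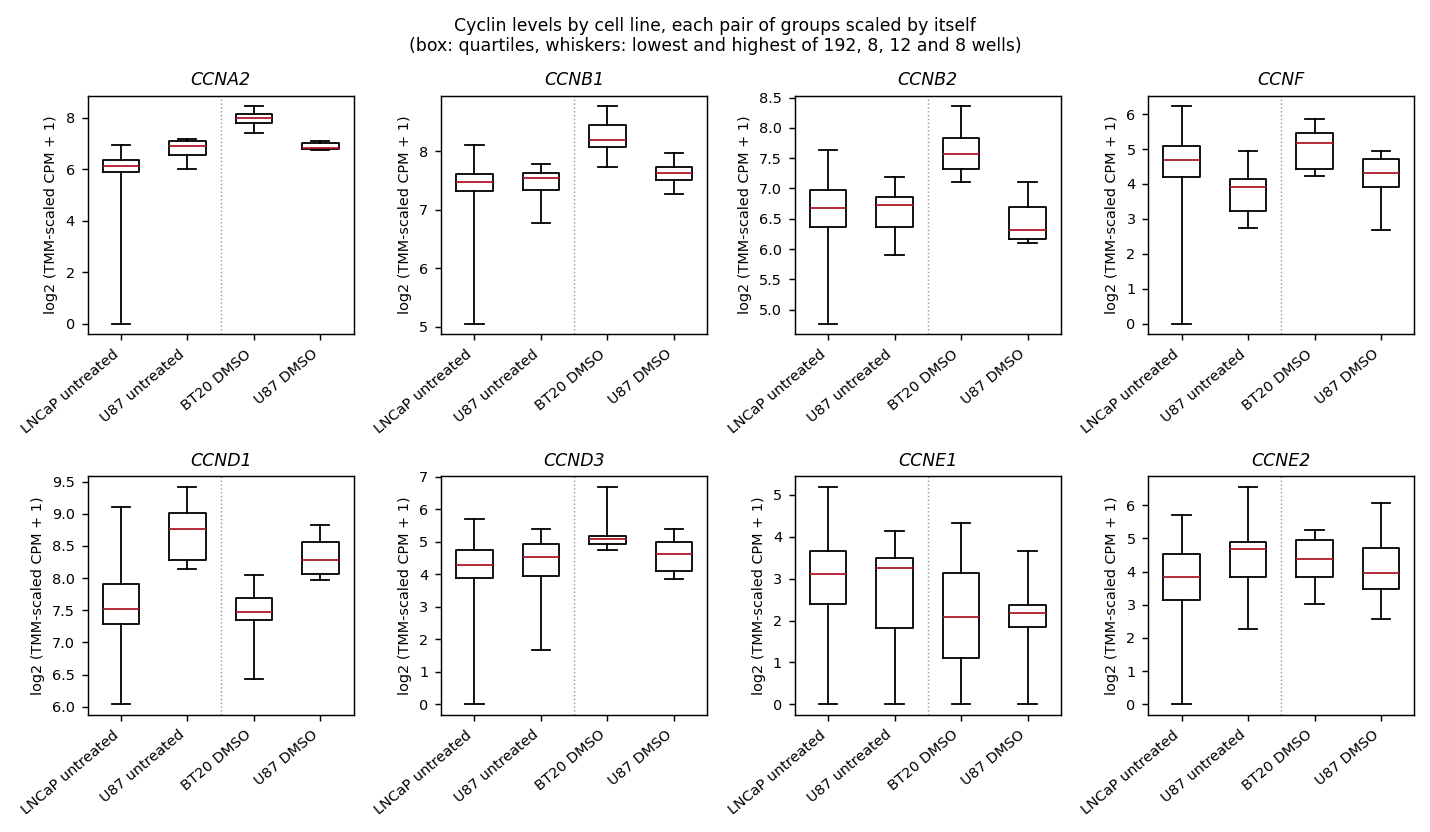
Log2 of TMM-scaled CPM plus 1 (vertical axis) for 8 cyclins in all untreated LNCaP, 8 untreated U87, 12 BT20 DMSO and 8 U87 DMSO wells (horizontal axis); boxes are quartiles with the median in red, whiskers the lowest and highest well, and each pair left and right of the dotted line was scaled by itself. CCNA2 in BT20 lies above all U87 DMSO wells, and the median of CCND1 in LNCaP and BT20 lies below that of U87.

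In the order of scaled medians within each pair, CCND1 was highest in U87 and the mitotic cyclins CCNA2, CCNB1 and CCNB2 in BT20 against U87, while CCNB1 and CCNB2 of LNCaP and U87 did not differ beyond the spread between wells under TMM. CCND2, the remaining D-type cyclin, was at or near 0 in most libraries. It had 0 counts in 96 BT20 wells, which allows up to 0.033 CPM over all wells, and 0 counts in all LNCaP wells, which allows up to 0.0324 CPM. The TruSeq pools of BT20 held 5 counts, 1 in each of 5 pools, and 27 U87 wells held 41 counts in all. These limits, at 3 counts, cover counting error only, since no molecular identifiers are named.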

How the data were processed

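Per the labels and the paper's methods, PLATE-Seq reads were assigned to wells by barcode, aligned to hg19 with BWA, and uniquely mapped reads were counted on each gene symbol. The authors deposited raw counts without normalization, and the counting of the TruSeq reads is not given in the sources used here. The labels put every one of the 688 libraries in a condition. Spike-in rows (92) stayed out of totals and tests.

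Counts were compared with edgeR 4.0.16 in R 4.3.3 (quasi-likelihood test, robust dispersion, TMM scaling, filterByExpr filter), on all genes, with Benjamini-Hochberg adjustment and calls at an adjusted p under 0.05. Each BT20 drug was fitted with DMSO alone, the 16 TruSeq pools together, and 32 U87 wells together with the plate as a term. Fold changes are log2 and CPM use library totals. The scripts were tested on simulated data. The alternatives were RLE scaling, DESeq2 1.42.0, no filter, wells or pools left out, a term for run, plate or lane, and another prior count. The depth limit in U87 was chosen after seeing the data. Members and lists were chosen with earlier results of these data known. In BT20, 84 pairs of a drug and a DMSO well of 1 run had a mean correlation of deviations of 0.00427, and 0 exceeded 0.1, so runs do not pair wells. The partners and other cyclins named are among the called genes with the 4 smallest p of each list and comparison. The genes most like CCND1 over the BT20 wells are not reported here. Promoters are those of RefSeq (GRCh38.p14), which were not used for CCND1, CCND2 and CCNE2.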

Additional observations from a re-analysis of the deposited data

Results flagged for a closer look

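Of 18 groups of 8 U87 control wells tested for a well far from the others, 3 were flagged, where chance flags about 1 in 20 groups. CCND2 had 1.294 CPM, from 1 count, in 1 DMSO well, and 0 in the other 7. CCNE1 had 11.9 CPM, from 7 counts, in 1 DMSO well, where the next highest had 4.249 CPM. CCNE2 had 67.36 CPM, from 62 counts, in 1 untreated well, where the next highest had 30.47 CPM. The counts of the first pair are so low that a few reads set these values.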

How the results depend on the processing

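Of the single-member calls, 77 of 77 values for BT20 PLATE-Seq kept direction and call under every alternative run, the replicate block of runs of 8 wells included, which left 5, 4 and 2 members called with idarubicin, mitoxantrone and bortezomib. For TruSeq, 202 values were kept and 14 lost the call, for the MEK inhibitors as a class 46 and 2, for single U87 compounds 22 lost it, for DMSO against untreated 4 and 3, for LNCaP 16 and 4, and for BT20 against U87 13 and 2. No called value changed sign. Without the filter, members called went from 0 to 1 with crizotinib in PLATE-Seq, from 1 to 2 with trametinib and from 0 to 2 with P276-00. Beside these stood 371 of 16808, 603 of 16899 and 205 of 16899 genes. DESeq2 called 1 member with P276-00, beside 233 of 4025 genes. With lane as a term, albendazole in TruSeq went from 1 to 0, beside 2 of 14970 genes. Without the plate term in U87 (no replicate block), 0 members were called with trametinib, 1 with TAK-733, 1 with ryuvidine and 0 for DMSO against untreated. Beside these stood 62, 208, 359 and 16 of 9195 genes. Leaving out 1 replicate gave between 3 and 6 members called with crizotinib in TruSeq, 0 and 1 with albendazole, 0 with trametinib, between 3 and 4 with pimasertib, 1 and 4 with refametinib, 1 and 4 with TAK-733, 1 and 3 with ryuvidine and 0 for DMSO against untreated. Each of these fits also called fewer genes in all than the main fit, so lost calls were not particular to the members. The first LNCaP plate alone gave 2 in place of 4, beside 5294 of 6942 genes in place of 5821 of 8010. The mitotic to G1 ratio with mitoxantrone minus DMSO, -0.68 from summed CPM, was -1.27 as a difference of mean log2 CPM, which gives each member equal weight; with refametinib it turned from 0.17 to -0.85 and with trametinib it went from -0.45 to -0.80.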
